A study of Mus musculus with 8 samples.

Results

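A set of 14 genes was all but silent in vehicle-treated osteoblast cultures and was read in every sample given parathyroid hormone (PTH). The genes were chosen by their raw counts: at most 20 in each of the 4 vehicle samples and at least 100 in each of the 4 PTH samples. Of the 47706 genes in the table, 31583 with a symbol stayed at or under the vehicle limit. Only 10354 of these had any count in any sample, and 19 also passed the PTH limit. Il6, Tnfsf11, Wnt4, C2cd4b, Kcnk10, Tacr1 and Scrt1 were left out beforehand, which removed 5 of the 19. The samples were primary calvarial osteoblasts, bone-forming cells released by collagenase from the skullcap of newborn mice, grown in culture for 7 days of differentiation and then given PTH or vehicle for 24 hours. The culture is a mixed population and RNA was read in bulk, so a rise in every cell and a rise in a few cells cannot be told apart. The sample labels name an adipogenic medium, whereas the study's methods describe an osteogenic one. Both groups were serum-starved before treatment, and the labels give no difference between them other than PTH. No source states whether the 4 samples of a group came from separate cultures or animals, so the spread between them may be technical.

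PTH binds PTH1R, a receptor on osteoblasts that couples to the stimulatory G protein. Adenylyl cyclase then makes cyclic AMP (cAMP), protein kinase A is released, and CREB, a transcription factor bound to cAMP response elements in promoters, is phosphorylated. Many genes that answer cAMP in endocrine cells and neurons are held at low levels until the signal arrives. The 14 genes were named without regard to function, and they comprised 4 genes of peptide and receptor signaling, 2 genes of metabolism, 4 genes of transcription and intracellular signaling, and 4 genes with no known protein product.

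Because the rule used the contrast of PTH with vehicle in all 8 samples, the levels and fold changes of these 14 genes are a description, and no test is given for them. Across the table, edgeR's quasi-likelihood test called 23.3% of 16736 tested genes higher and 22.5% lower with PTH. All 14 genes were among those tested and none overlapped between treatments, which the rule itself fixes. Total counts lay between 33605610 and 56090654 per sample, with a median of 43554700. The limits were set on unscaled counts, so a deeper library reached 100 counts at a lower level.

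**Figure D1:**
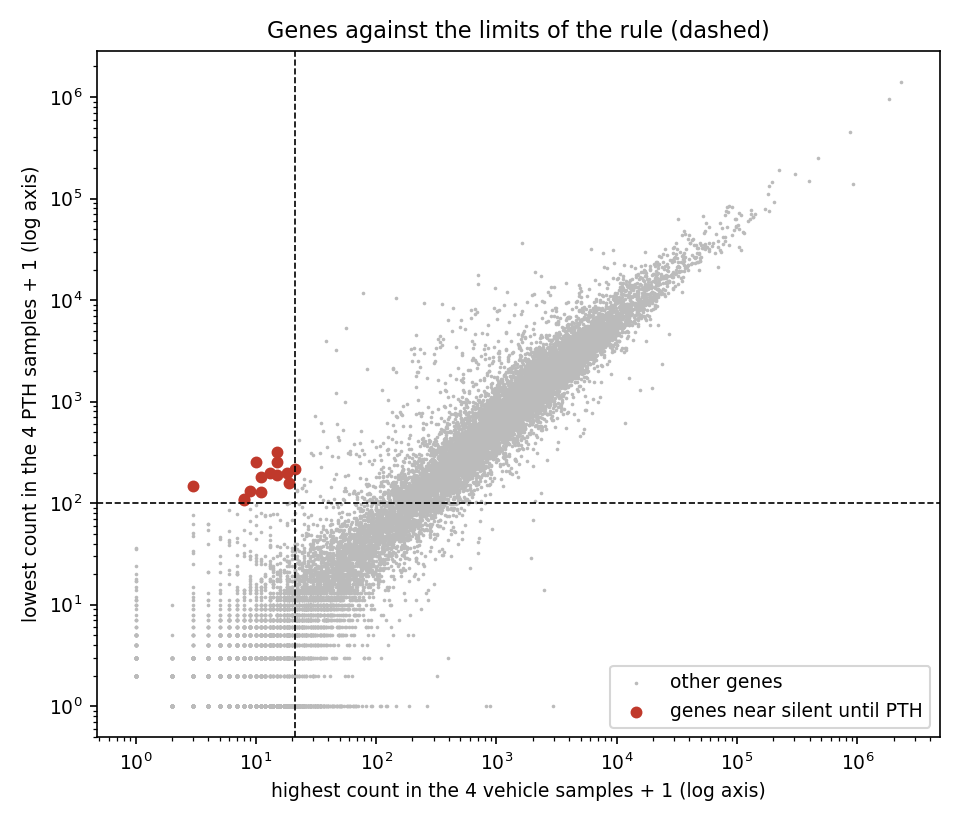
Each point is a gene, placed by its highest count among the 4 vehicle samples (x axis, count + 1, log axis) and its lowest count among the 4 PTH samples (y axis, count + 1, log axis), with the limits of 20 and 100 counts dashed. The 14 genes (red) fill the upper left corner, and none of them reached 500 counts in every PTH sample. The 7 genes left out beforehand are not drawn.

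The corner was sparsely filled. Without the left-out genes and with the vehicle limit kept at 20 counts, 382 genes had at least 10 counts in each PTH sample. At 20, 50, 100 and 200 counts in each PTH sample there were 149, 46, 14 and 4 such genes. Before genes were left out, 19 met the limits of 20 and 100 counts. The genes just inside the PTH limit were Sp6, Fgf21 and Mchr1, with lowest PTH counts of 107, 109 and 129. Just outside it were Gm5124, Il2rb and Ren1, with lowest PTH counts of 99, 97 and 95. At the vehicle limit, Gm17276, Gareml and Baalc lay inside with highest vehicle counts of 20, 18 and 17. Gm16062, Slc1a1 and Vgf lay outside with 21, 21 and 22. With the treatments exchanged, 2 genes met the limits. These were Dkk1, a secreted Wnt antagonist, with 303 to 815 counts with vehicle and 0 to 16 with PTH, and Rnf152, a ubiquitin ligase of lysosomes, with 136 to 200 counts with vehicle and 4 to 15 with PTH.

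Promoter sequences were examined because the cAMP response element is the site through which CREB acts, and sequence was not used by the rule. RefSeq promoter windows, 250 bases before to 50 after the start of the gene on GRCm38.p6, were found for 8 of the 14 genes, Gareml under its current symbol Garem2. Cidea, Sp6, Baalc, Calcb, Gm17276 and Gm44013 were not matched. The RefSeq window of Dbpht2 (chr12:74297224-74297523) lies within the gene as placed by GENCODE M21, which starts it at 74296668. It was still counted among the 8. The core of the element, TGACG or its reverse complement CGTCA, was present in 4 of the 8 genes (50%), against 23.0% of 27025 genes with a promoter window. The windows of these 4 genes are shown 5′ to 3′ on the strand of the gene, with the element core and the TATA box (TATAAA) in capitals. They lie at chr4:133212487-133212786 on the minus strand (Gpr3), chr7:45615441-45615740 on the minus strand (Fgf21), chr10:3540024-3540323 on the plus strand (Iyd) and chr12:74284026-74284325 on the plus strand (1700086L19Rik).
Gpr3: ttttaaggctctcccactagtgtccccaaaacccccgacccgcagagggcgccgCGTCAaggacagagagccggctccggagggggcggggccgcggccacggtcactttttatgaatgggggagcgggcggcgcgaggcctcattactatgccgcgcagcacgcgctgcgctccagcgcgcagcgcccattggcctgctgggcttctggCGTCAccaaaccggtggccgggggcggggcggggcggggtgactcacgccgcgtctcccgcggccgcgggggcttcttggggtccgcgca
Fgf21: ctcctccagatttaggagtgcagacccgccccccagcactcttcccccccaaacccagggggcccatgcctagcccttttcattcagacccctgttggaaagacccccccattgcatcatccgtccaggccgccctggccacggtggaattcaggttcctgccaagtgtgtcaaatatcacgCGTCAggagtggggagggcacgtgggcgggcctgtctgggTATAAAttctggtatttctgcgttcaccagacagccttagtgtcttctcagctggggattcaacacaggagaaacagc
Iyd: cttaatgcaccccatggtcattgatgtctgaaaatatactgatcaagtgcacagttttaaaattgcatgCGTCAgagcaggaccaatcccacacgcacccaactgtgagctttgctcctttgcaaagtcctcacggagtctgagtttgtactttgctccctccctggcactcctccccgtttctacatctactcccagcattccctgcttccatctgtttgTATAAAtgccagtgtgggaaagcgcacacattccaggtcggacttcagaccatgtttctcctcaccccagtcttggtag
1700086L19Rik: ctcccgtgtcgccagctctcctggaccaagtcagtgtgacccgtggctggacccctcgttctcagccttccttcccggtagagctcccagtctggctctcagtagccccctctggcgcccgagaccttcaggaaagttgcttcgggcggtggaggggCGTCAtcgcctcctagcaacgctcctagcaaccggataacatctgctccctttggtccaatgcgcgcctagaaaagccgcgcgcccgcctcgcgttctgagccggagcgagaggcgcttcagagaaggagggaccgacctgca

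Gpr3 held the core in 2 places, with first bases at -196 and -40 from the start. The other 3 genes held it once, at -68 in Fgf21, -181 in Iyd and -93 in 1700086L19Rik. Each of these matches read CGTCA on the strand of the gene. A TATA box, searched on the strand of the gene only, began at -28 in Fgf21 and -29 in Iyd, which is where such a box usually sits, and was present in 25% of the 8 genes against 9.77% of all genes. The full palindrome TGACGTCA, which contains the core, was in none of the 8 windows and in 2.03% of all genes. The AP-1 motif TGANTCA was found in 1 gene (12.5%, against 8.97%), as TGACTCA at -1 in Gpr3. No window held AAAGGTCA, the NR4A motif (1.70% of all genes), TTGCGCAA, a C/EBP palindrome (0.207%), or TGTGGT, the RUNX core (18.9%). Except for the TATA box, motifs were searched on both strands. The median GC content of the members' windows was 58.0%, against 52.7% for all windows, and the median ratio of observed to expected CpG was 0.495 against 0.384. A match describes letters in a window and does not show binding, and a window without a match says nothing of sites elsewhere.

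**Figure D2:**
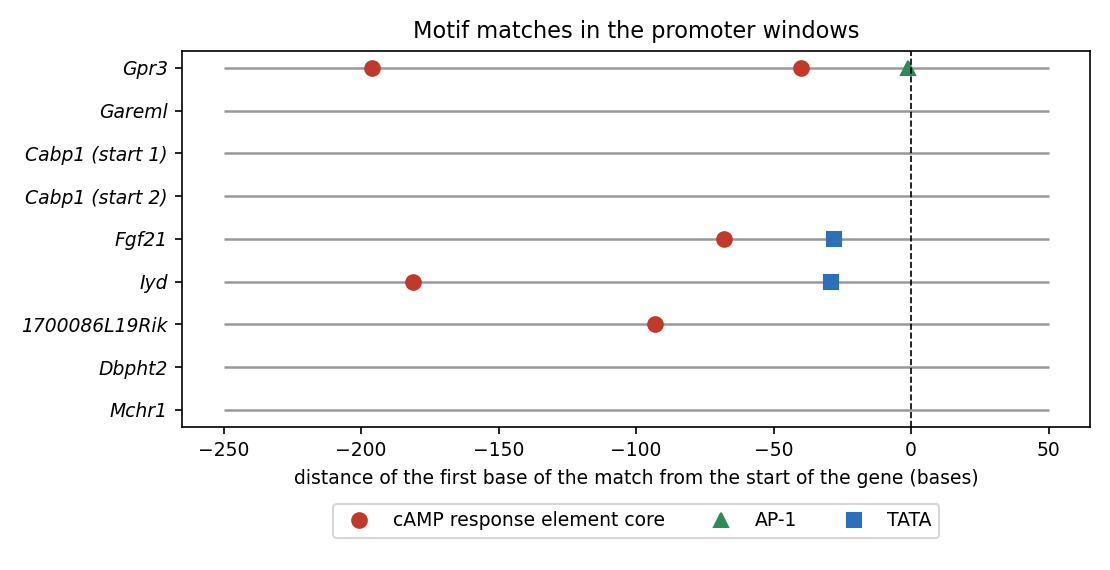
Each row is a promoter window of a gene (Cabp1 has 2 starts), and symbols mark the first base of each motif match by its distance in bases from the start (dashed line). Element cores lie between -196 and -40, and the TATA boxes lie at -28 and -29.

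Of the genes of peptide and receptor signaling, Gpr3 encodes a receptor that couples to the stimulatory G protein and raises cAMP without a known obligatory ligand. It lies on chromosome 4 from 133209340 to 133212536 (minus strand; positions are those of GENCODE M21 on GRCm38). Its counts were 0, 2, 0 and 2 in vehicle replicates 1 to 4, and 170, 156, 146 and 179 in PTH replicates 1 to 4. The vehicle samples were thus at the floor. Over each group, 4 counts became 651, and the ratio scaled for library size was 184, with a 95% exact interval of 71.3 to 676 for counting error only. The read length set in the counting was not given in the sources used here, and if it left the counts doubled this interval is too narrow. On halved counts it ran from 50.3 to 1519. Gpr3 was chosen by the same counts and had the largest ratio of the 14. The interval is thus a description and not a test. In CPM, that is counts relative to the library size scaled by TMM, Gpr3 went from 0.0216 ± 0.0250 to 4.02 ± 0.591 (SD, n = 4 here and for each mean below). Its PTH samples ran from 3.32 CPM in replicate 1 to 4.69 CPM in replicate 2. Its close relatives Gpr6 and Gpr12 had 0 counts in all 8 samples, which allows at most 3 counts in a library. The Gpr3 locus shares 406 bases with Cd164l2 on the other strand, which had 0 to 17 counts per sample.

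Mchr1, a receptor for melanin-concentrating hormone best known in the brain, lies on chromosome 15 from 81235499 to 81238964 (plus strand). Its counts were 7, 6, 10 and 9 with vehicle and 145, 129, 194 and 227 with PTH, and its level went from 0.171 ± 0.0308 to 4.29 ± 1.17 CPM. Its PTH samples were the most variable of the set, with replicates 3 and 4 above replicates 1 and 2. Pmch, which encodes the ligand of Mchr1, had at most 5 counts in any sample.

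Calcb encodes the beta form of calcitonin gene-related peptide, a vasodilator released by sensory nerves, and lies on chromosome 7 from 114718643 to 114723365 (plus strand). Its counts were 11, 5, 0 and 14 with vehicle and 327, 189, 347 and 247 with PTH. The level went from 0.161 ± 0.129 to 6.75 ± 1.57 CPM, and PTH replicate 3 was the highest. Its paralog Calca, which encodes calcitonin and the alpha form of the peptide, stood at 2.18 ± 0.651 CPM with vehicle and 13.4 ± 3.75 with PTH, and so was not silent beforehand. The genes for the receptor of the peptide were present in both groups. Calcrl stood at 6.89 ± 1.13 and 7.32 ± 1.49 CPM and Ramp1 at 14.9 ± 2.66 and 14.6 ± 2.21 CPM with vehicle and PTH, and their ranges overlapped.

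Fgf21, a hormone of the fibroblast growth factor family that is made in liver and fat during metabolic stress, lies on chromosome 7 from 45613886 to 45615490 (minus strand). Its counts were 4, 4, 7 and 3 with vehicle and 223, 109, 158 and 223 with PTH. Mean expression went from 0.0969 ± 0.0357 to 4.26 ± 0.831 CPM. Fgf21 signals through FGF receptors together with the coreceptor beta-Klotho. Fgfr1 stood at 330 ± 14.7 CPM with vehicle and 520 ± 63.5 with PTH, whereas Klb, the gene for beta-Klotho, stood at 0.219 ± 0.0821 and 0.321 ± 0.0713 CPM and had 6 to 16 counts per sample. The partner genes in this and the following paragraphs were picked once the 14 genes were known, and their values are given without a test.

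Among the genes of metabolism, Cidea had the highest level with PTH. It encodes a protein of the surface of lipid droplets that promotes their fusion and is known for its expression in brown fat. Counts of Cidea were 14, 9, 8 and 10 with vehicle and 730, 318, 451 and 509 with PTH, and the gene lies on chromosome 18 from 67343604 to 67367785 (plus strand). The level went from 0.222 ± 0.0629 to 11.9 ± 1.91 CPM, a fitted log2 fold change of 5.74 (SE 0.215). Its relatives Cidec and Cideb remained low, at 1.01 ± 0.283 and 0.316 ± 0.239 CPM with vehicle and 1.61 ± 0.587 and 0.439 ± 0.138 CPM with PTH. Ucp1, the uncoupling protein of brown fat, stood at 0.283 ± 0.141 and 1.05 ± 0.171 CPM. The summed level of adipocyte markers overlapped between treatments: that of the 10 listed genes was 72.6 to 90.1 CPM in the vehicle samples and 65.7 to 87.0 CPM in the PTH samples. Cidea shares 500 bases with B430212C06Rik on the other strand, a gene with 8 to 24 counts per sample.

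Iyd encodes iodotyrosine deiodinase, which recovers iodide from iodotyrosines in the thyroid, and lies on chromosome 10 from 3540240 to 3554877 (plus strand). Its counts were 3, 5, 7 and 14 with vehicle and 583, 256, 283 and 299 with PTH. Its mean went from 0.153 ± 0.0924 to 8.39 ± 2.0 CPM. PTH replicate 1, the deepest library, stood apart at 11.4 CPM, with the other 3 between 7.11 and 7.70 CPM, and all 4 lay far above the vehicle samples.

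Sp6 is a zinc finger transcription factor known for tooth and skin development and a relative of the osteoblast factor Sp7. It had 0, 0, 7 and 5 counts with vehicle and 241, 107, 186 and 223 with PTH, and lies on chromosome 11 from 97013394 to 97024734 (plus strand). The level went from 0.0617 ± 0.0736 to 4.52 ± 0.903 CPM. Sp7 went the other way, from 103 ± 29.6 to 30.1 ± 3.26 CPM. A transcript on the other strand, Gm11532, shares 4227 bases with Sp6, and 3330 bases of the transcripts match at 100% identity. It had 35, 50, 3 and 56 counts with vehicle and 0, 72, 0 and 7 with PTH. Because the strand setting of the counting was not given, reads of the 2 genes cannot be told apart. The low vehicle counts of Sp6 thus depend on which gene the reads were assigned to.

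Gareml (current symbol Garem2) encodes an adaptor protein related to Garem1, which acts downstream of growth factor receptors. It lies on chromosome 5 from 30105161 to 30118378 (plus strand). Counts were 4, 18, 10 and 8 with vehicle and 355, 156, 211 and 255 with PTH, and the level went from 0.218 ± 0.139 to 5.80 ± 0.939 CPM. Garem1 stood at 12.1 ± 1.02 CPM with vehicle and 5.21 ± 0.729 with PTH, so the 2 related genes lay in opposite order between the treatments. Gareml lies 85179 bases from Il6, which met the same limits and was left out of the set. It overlaps Hadha, an enzyme of fatty acid oxidation on the other strand, by 75 bases, and Hadha did not pass the test (log2 fold change 0.04, edgeR adjusted p = 0.618).

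Cabp1 encodes a calcium-binding protein related to calmodulin that tunes calcium channels in neurons and lies on chromosome 5 from 115168689 to 115194381 (minus strand). Its counts were 10, 9, 1 and 10 with vehicle and 281, 265, 181 and 220 with PTH. Expression went from 0.163 ± 0.0952 to 5.85 ± 1.45 CPM. Vehicle replicate 3 was the lowest of the vehicle samples and PTH replicate 2 the highest of the PTH samples.

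Baalc is a membrane-associated protein of neural tissue and of blood progenitors and lies on chromosome 15 from 38933144 to 38952912 (plus strand). Its counts were 17, 12, 10 and 12 with vehicle and 397, 209, 199 and 274 with PTH, and its level went from 0.276 ± 0.0739 to 6.44 ± 1.05 CPM. Together with Gm17276, it was thus near the upper end of what the vehicle limit admits. Fzd6, a Wnt receptor gene of the same region, stood at 14.4 ± 1.74 CPM with vehicle and 56.5 ± 5.72 with PTH.

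The other 4 genes have no established protein product. 1700086L19Rik, a transcribed unitary pseudogene, lies on chromosome 12 from 74284242 to 74295945 and had 8, 0, 0 and 9 counts with vehicle and 359, 253, 275 and 330 with PTH. The level went from 0.0900 ± 0.104 to 7.41 ± 0.387 CPM, the least variable of the set across the PTH samples (coefficient of variation 5.22%). Dbpht2, a long intergenic RNA, follows it on the same (plus) strand after 722 bases, from 74296668 to 74302008. It had 3, 0, 12 and 3 counts with vehicle and 251, 247, 197 and 260 with PTH, and went from 0.0944 ± 0.108 to 5.91 ± 1.16 CPM. These 2 genes are the only pair among the 14 that are nearest tested neighbors of each other, so whether their reads come from 1 transcript or from 2 was not tested.

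Gm17276 is annotated as antisense and lies on chromosome 17 from 32113411 to 32141843 (plus strand). It had 20, 16, 18 and 18 counts with vehicle and 364, 237, 320 and 217 with PTH. The level went from 0.388 ± 0.0392 to 6.94 ± 1.32 CPM, a fitted log2 fold change of 4.15 (SE 0.214), the smallest of the 14. It shares 21024 bases with Notch3 on the other strand, and Notch3 was lower with PTH (log2 fold change -0.37, edgeR adjusted p = 6.70e-04). The strand setting of the counting was not given in the sources used here, so reads of the 2 genes cannot be told apart. Its transcript also holds stretches of at least 150 bases that match 50 other genes at 95% identity or more, which makes its counts uncertain. For 10 of the other 13 genes no such match was found, and Baalc, Gareml and Sp6 matched 1 other gene each.

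Gm44013 carries the GENCODE type TEC, used for loci awaiting experimental follow-up, and lies on chromosome 6 from 140620162 to 140622423 (minus strand). It had 4, 7, 6 and 8 counts with vehicle and 187, 141, 143 and 132 with PTH, and went from 0.134 ± 0.0343 to 3.69 ± 0.452 CPM. It starts 239 bases from Aebp2, a gene of the Polycomb machinery on the opposite strand, which had 60.6 to 64.2 CPM with vehicle and 223 to 235 CPM with PTH. Aebp2 passed the test (log2 fold change 1.87, edgeR adjusted p = 1.54e-10).

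**Figure D3:**
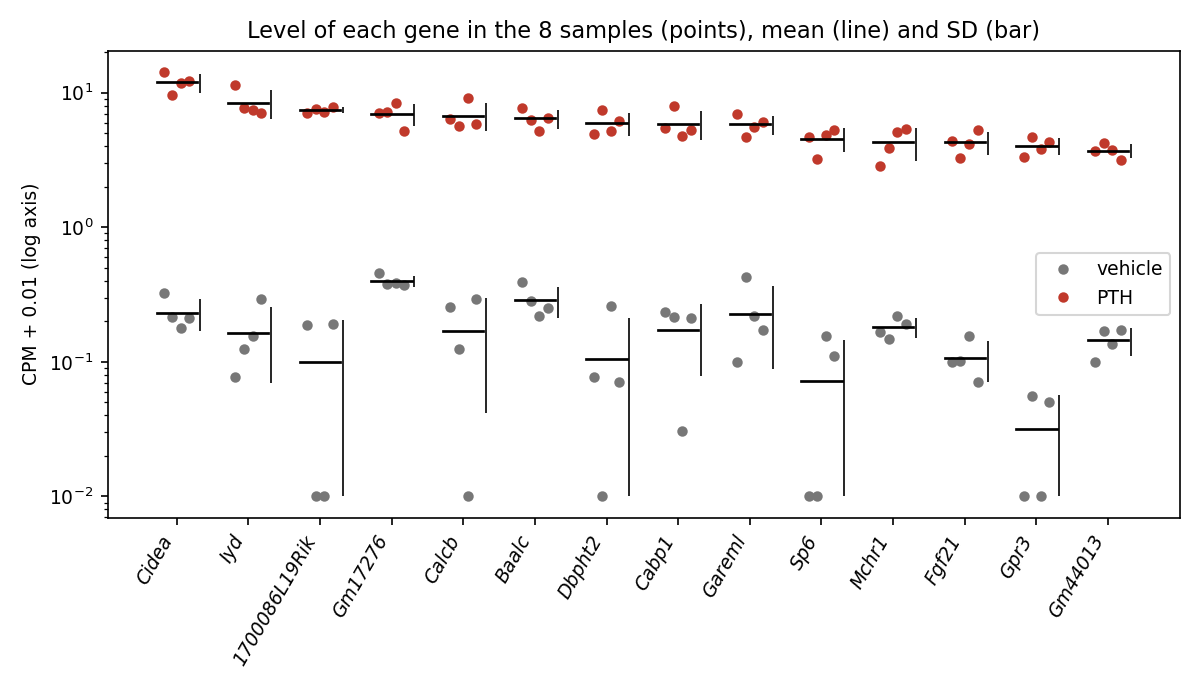
CPM + 0.01 (log axis) of each of the 14 genes in the 4 PTH and 4 vehicle samples (points), with the mean (line) and SD (bar). Mean levels lie between 0.0216 and 0.388 CPM with vehicle and between 3.69 and 11.9 CPM with PTH, and no gene overlaps between treatments.

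Taking the 14 genes as a set, the fitted log2 fold changes ran from 4.15 to 7.36 with a median of 5.39, while the median of all tested genes was -0.00081. They held ranks between 18 and 128 of the 16736 tested genes by log2 fold change. By mean CPM with PTH they lay between the 28.7th and 45.4th percentile of the tested genes, whose median was 15.4 CPM. The ratios of summed counts ran from 17.8 to 184 with a median of 43.2. Of the 56 values of the 14 genes in vehicle samples, 8 were 0. Protein-coding genes made up 10 of the 14 (71.4%), against 85.7% of the tested genes with a type and 26.0% of the rows at or under the vehicle limit. Most of those rows had no count in any sample. The summed exons of the 14 genes were shorter than usual, with a median of 2498 bases against 4016.

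Since long transcripts collect more fragments, the 14 genes were set in order of level per kilobase of exon. On that scale Cidea led with 10.7 CPM per kilobase with PTH, and 1700086L19Rik (6.89), Calcb (5.34), Iyd (5.17) and Fgf21 (4.48) followed. The other 9 genes lay between 1.0 (Cabp1) and 2.20 (Gm17276) CPM per kilobase. Fgf21 has the shortest exon sequence of the set, 951 bases, and Cabp1 the longest, 5832 bases.

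No PTH replicate was highest or lowest for all of the genes. Some profiles were alike, such as those of Cidea and Gareml, and covariation between genes was not tested. Relative to its own mean over the 4 PTH samples, a gene was highest in replicates 1, 2, 3 and 4 in 4, 4, 2 and 4 cases, and lowest in 4, 5, 2 and 3 cases. The median relative level of the 14 genes was 1.0, 0.948, 0.968 and 1.03 in the 4 replicates. Coefficients of variation ran from 5.22% for 1700086L19Rik to 27.3% for Mchr1, with a median of 19.3%, against a median of 14.1% for 2786 other tested genes at the same level with PTH.

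**Figure D4:**
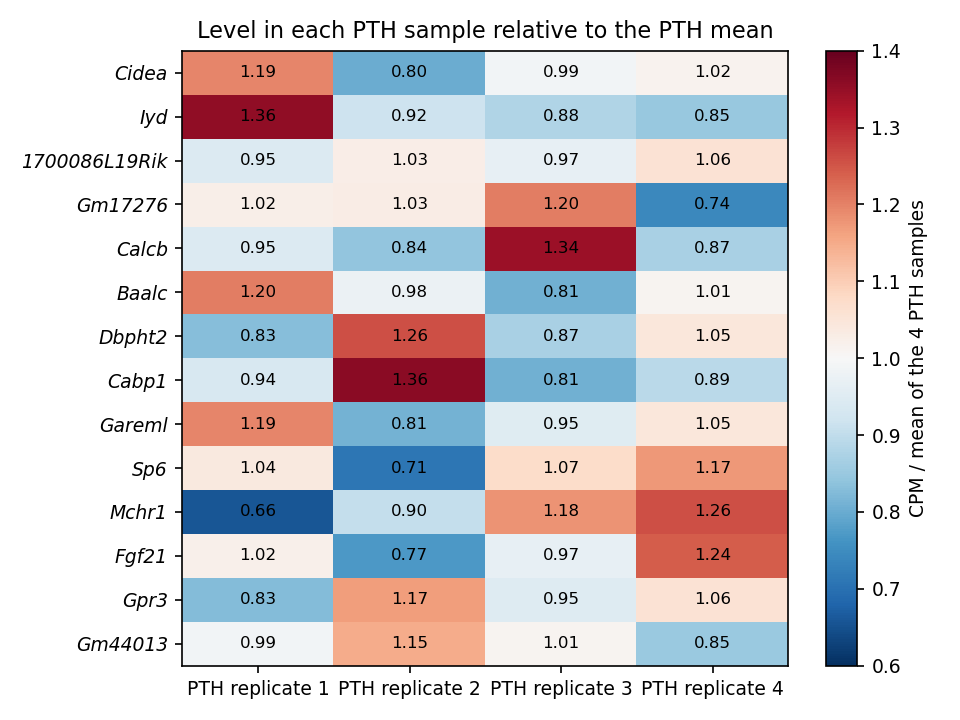
Color gives the CPM of each gene in each PTH replicate divided by the mean of its 4 PTH samples. No replicate is highest throughout: the ratios range from 0.659 for Mchr1 in replicate 1 to 1.36 for Cabp1 in replicate 2.

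The genes around the 14 were examined because reads can run on from a neighbor and because transcripts can share a regulatory region. The nearest tested genes were taken at any distance, up to 1006313 bases for Rhoj beside Dbpht2. Snapc1 lay 295275 bases from 1700086L19Rik, and both Rhoj and Snapc1 were called higher. The 26 distinct nearest tested genes on either side that were not members themselves came from the same contrast but were not chosen by it. Of these, 9 were higher (34.6%, against 23.3% of all tested genes), 4 were lower (15.4%, against 22.5%) and 13 did not pass the test, with a median log2 fold change of 0.10. Gm26704, B430212C06Rik and Gm11532 did not reach the filter's level in every vehicle sample, and of the other 23 neighbors 8 were higher (34.8%) and 4 lower (17.4%). Among these 23, Aebp2 changed most. Gm26704, 50372 bases from Baalc, was tested through its PTH samples alone, with 0 to 18 counts with vehicle and 23 to 76 with PTH. Rrp1b, a nucleolar protein gene beside Gm17276, rose by a log2 fold change of 1.35, Pop5, an RNase P subunit gene beside Cabp1, by 1.16, and Plekha5 beside Gm44013 by 1.11. The 4 lower neighbors were Notch3, Insc beside Calcb, Bcat2 beside Fgf21 and Wasf2 beside Gpr3, with log2 fold changes of -0.37, -0.47, -0.25 and -0.32. Annotated genes overlapped 6 of the 14 (Cidea, Gm17276, Baalc, Gareml, Sp6 and Gpr3).

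**Figure D5:**
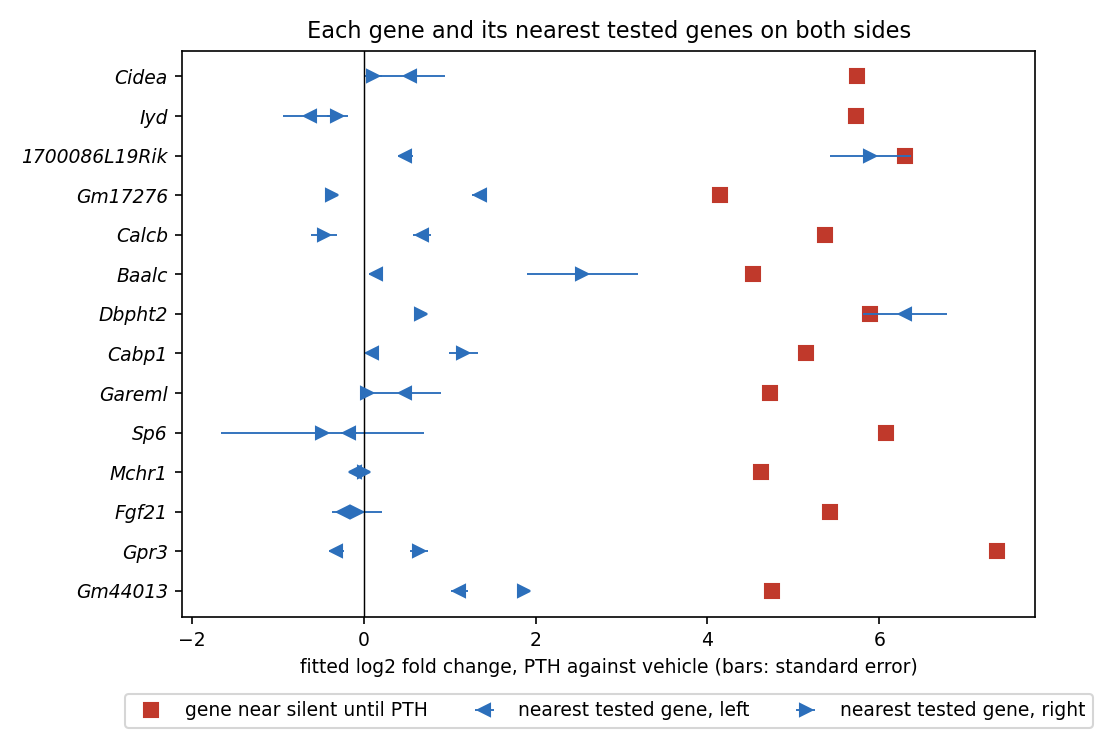
Fitted log2 fold change, PTH against vehicle, of each of the 14 genes (red squares) and of its nearest tested gene on each side, with standard errors as bars. The 14 genes lie between 4.15 and 7.36, and every neighbor that is not one of them lies at or under 2.55, the value of Gm26704, which had 0 to 18 counts with vehicle. Aebp2 follows at 1.87.

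Genes known to answer cAMP were compared as a list of 40, none of which is among the 14. The list was chosen with earlier results of these data known, so its shares are a description and not an independent test. Il6 and Tacr1 meet the same count limits and were set aside, and 35 of the remaining 38 could be tested. Of these 35, 32 were higher with PTH (91.4%, against 23.3% of all tested genes) and 0 were lower by edgeR at an adjusted p under 0.05. At an unadjusted p under 0.05, 33 were higher and 0 lower, and DESeq2 called 32 higher and 0 lower among the same genes. Areg, Ucp1 and Vgf did not reach the filter's level of 10 counts at the median depth in every vehicle sample, and of the other 32 tested genes 29 were higher (90.6%, against 23.1% of all genes at that level). The median log2 fold change of the list was 3.33, and its summed level was 494 to 504 CPM in the vehicle samples and 4254 to 4755 CPM in the PTH samples.

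The levels of several genes of the list are given for comparison. Nr4a3, an orphan nuclear receptor, stood at 2.46 ± 0.481 CPM with vehicle and 345 ± 20.9 with PTH. Junb, an AP-1 subunit, stood at 23.8 ± 2.30 and 396 ± 32.1 CPM, and Crem, which encodes repressors and activators of cAMP-driven transcription, at 8.12 ± 1.24 and 235 ± 36.0 CPM. The called gene with the largest fitted change was Areg, a ligand of the EGF receptor, with 0, 0, 0 and 2 counts with vehicle and 76 to 199 with PTH. Its ratio of summed counts was 280, with a 95% exact interval of 77.0 to 2316 for counting error only (49.7 to 11089 on halved counts), and it missed the PTH limit in replicate 2 alone. The smallest change that passed was that of Egr1 (log2 fold change 0.34, edgeR adjusted p = 0.00584). Fosb, Pck1 and Scg2 did not pass, with log2 fold changes of 0.34, 0.20 and 0.28.

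Several of the 14 genes are known from nerve, fat, thyroid or skin, so markers of other cell types were counted in the same fit. Against the 23.3% higher and 22.5% lower among all tested genes, these lists are mostly too short for their shares to be read closely. They too were chosen with earlier results of these data known. Of 12 tested neuronal and neuroendocrine markers, 5 were higher (41.7%): Vgf, a secreted neuropeptide precursor, the neurofilament genes Nefl and Nefm, Tubb3 and Gap43. The summed level over all 20 listed genes was 93.3 to 104 CPM with vehicle and 124 to 153 CPM with PTH. Within this sum, mean Tubb3 went from 9.73 to 27.4 CPM, and Scg2, which did not pass, from 44.8 to 54.4 CPM. Vgf and Scg2 are also in the cAMP list. The other tested genes did not pass. Log2 fold changes were -0.05 for Chgb, 0.02 for Syp, -0.26 for Stmn2 and -0.03 for Map2. They were 0.41 for Snap25 and 0.55 for Syt1. The summed level thus does not show a rise across the list. The neuronal genes Elavl3 and Rbfox3 and the neuroendocrine gene Chga were near 0, with means under 0.1 CPM in both groups. Of the 7 that reached the filter's level in every vehicle sample, 3 were higher (42.9%), and Vgf and Nefl were not among these 7. Within the whole list, Vgf changed most (log2 fold change 5.62) and Nefm least of those that passed (1.27).

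Of 9 tested adipocyte markers, Lipe was higher (log2 fold change 0.38), Pparg (-1.50) and Pnpla2 (-0.35) were lower, and the leptin gene was near 0. Of 12 tested osteoblast markers, 3 were lower (25%, near the share of all tested genes), with Sp7 the most (-1.78) and Runx2 the least (-0.33), and Col1a1 stood at 44362 ± 2309 CPM with vehicle and 48173 ± 7732 with PTH. Of the 3 osteocyte markers that reached the filter's level in every vehicle sample, Pdpn (1.84) was higher and Dmp1 (-1.12) lower. Fgf23, tested through its PTH samples alone, had 0 counts in each vehicle sample and 247 over the PTH samples, at least 23.2-fold higher against 3 counts per library. Of 6 chondrocyte markers, Acan (1.03) and Col2a1 (0.44) were higher.

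Of 14 macrophage and osteoclast markers, Lyz2 (0.63) and Cd14 (0.50) were higher (14.3%, below the share of all tested genes). The summed level of the list was 1575 to 2158 CPM with vehicle and 2261 to 2547 CPM with PTH. Without Lyz2 it was 827 to 978 CPM and 953 to 1091 CPM, and the groups overlapped. Kdr (1.51) was higher and Tek (-0.49) lower among 4 endothelial markers, and Cnn1 (2.13) was higher and Acta2 (-0.31) lower among 5 muscle markers. Krt18 (2.65, edgeR adjusted p = 0.0255) was higher of 2 epithelial markers by edgeR but not by DESeq2, it did not reach the filter's level in every vehicle sample, and Krt5 and Krt14 were at or near 0. Of 8 lymphocyte genes only Cd4 could be tested, and it did not pass. Whether any of these cells took part in the levels of the 14 genes was not tested.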

How the data were processed

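RNA was sequenced in 4 PTH-treated and 4 vehicle-treated samples of osteoblast cultures, grouped by their labels. Poly(A) libraries were read as pairs of 150 bases. Alignment to GRCm38 was by HISAT2, sorting by SAMtools and assembly by StringTie2, all run by the authors. The authors deposited whole-number counts per gene, not normalized, which the StringTie2 companion script derives from transcript coverage. That script assumes reads of 75 bases by default, and the value used, tool versions, annotation and strand setting were not given in the sources used here. No column of other samples was present (0 columns).

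Counts were fitted over all genes with edgeR 4.0.16 in R 4.3.3 (TMM, filterByExpr at 10 counts and 15 in total, two-sided quasi-likelihood F-test, Benjamini-Hochberg adjustment, threshold 0.05). CPM used TMM-scaled library sizes. DESeq2 1.42.0, which the authors used, was an alternative. Both steps were tested on simulated data. Positions, exon lengths and types came from GENCODE M21, and promoters from RefSeq. Similar transcripts were sought with blastn 2.17.0 (at least 150 bases, 95% identity). Python 3.11.15, pandas 2.3.3, NumPy 2.4.6, SciPy 1.17.1 and matplotlib 3.10.9 were used.

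Library totals of 33605610 to 56090654 counts set the precision, and intervals cover counting error only. The members and gene lists were chosen with earlier results of these data known, and their grouping by role was made after their values were seen. Named were the 14 members with values in every sample, the 3 genes just inside and outside each limit, and of each list the called genes with the largest and smallest change, and further list genes, relatives, partners and neighbors were named after their values were seen. Alternatives were other limits, thinned, scaled or halved counts, counts summed by symbol, single-symbol loci, coding genes only, DESeq2 or its size factors, no filter, other prior counts, the replicate number as a block, a least log2 fold change of 1, a shorter promoter window, and leaving out each sample. All 8 samples entered the fit.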

Additional observations from a re-analysis of the deposited data

Results flagged for a closer look

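Within each treatment, 3 values lay far from the other 3 samples of their group by Dixon's ratio (the gap to the nearest sample over the whole range, set against the 95% critical value for 4 samples), out of 28 groups of 4 samples tested. Chance alone flags about 1 in 20 groups. Iyd in PTH replicate 1 was the highest of its group at 11.4 CPM (ratio 0.860), with the others at 7.11, 7.39 and 7.70 CPM. Cabp1 in vehicle replicate 3 was the lowest at 0.0209 CPM (ratio 0.894), which was 1 count, with the others between 0.202 and 0.223 CPM. Gm17276 in vehicle replicate 1 was the highest at 0.446 CPM (ratio 0.848), with the others between 0.363 and 0.376 CPM.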

How the results depend on the processing

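The number of genes depended most on the limits. It was 1 at limits of 10 and 200 counts (1700086L19Rik alone) and 88 at limits of 40 and 50, and the mirrored count of 2 became 0 at the stricter limits and 1 after thinning. Thinning every library to 33605610 counts gave 20 genes, 13 of them among the 14 (Mchr1 was lost), and limits on TMM-scaled counts gave 20 with all 14 among them. Halving the counts, as for reads of 150 bases counted at 75, again gave 14 genes, but only 4 of these were the same. Leaving out each sample in turn gave 14 to 20 genes, with 20 when vehicle replicate 4 was left out. All 14 were included each time, which the rule itself fixes, since leaving out a sample can only relax its limits. The median log2 fold change of the set was 5.30 and 4.98 with prior counts of 0.5 and 2, and 5.28 to 5.49 with a sample left out. A least log2 fold change of 1 reduced the genes called higher from 3907 to 1232 and those called lower from 3762 to 650. With a sample left out, 3412 to 4119 genes were called higher, 3259 to 3955 lower, and 32 to 33 of the cAMP list higher. DESeq2 called 4104 higher and 3775 lower. Under the alternatives, 63 values stayed within 1.5 times the main count or within the replicate spread and 11 moved further. This tally compares numbers and not which genes they stand for, so the halved counts are among the 63. Also among the 63 are settings that could not change the value, such as single-symbol loci and the shorter promoter window. The tally is thus no measure of how stable the set is.

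The replicate numbers did not pair the samples: correlations of the deviations of same-numbered samples were -0.038, -0.033, -0.041 and 0.027. With the replicate block, 3571 genes were called higher and 3432 lower, 33 of the cAMP list were higher, and the median log2 fold change of the set was 5.40. Depth limits any gene near 0 with vehicle, where a few reads set the size of the fold change.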

Other observations

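Beside the 14 genes, several genes of peptide and transmitter biology lay close to the limits, named here after their values were seen. Cartpt, a neuropeptide precursor, had 12, 6, 9 and 25 counts in vehicle replicates 1 to 4 and 199, 131, 147 and 151 in PTH replicates 1 to 4, and so missed the vehicle limit in 1 sample. Its level was 0.274 ± 0.162 CPM with vehicle and 3.81 ± 0.155 with PTH (SD, n = 4). Tac1, the precursor of substance P, had 0, 0, 8 and 2 counts with vehicle and 185, 86, 114 and 108 with PTH, and missed the PTH limit in replicate 2. Its receptor gene Tacr1 met both limits and was left out of the set. Ren1, which encodes renin, had 9 counts in vehicle replicate 1, 0 in the other 3 and 131, 95, 100 and 96 with PTH. Slc1a1, a glutamate transporter, went from 0.286 ± 0.111 to 4.88 ± 0.742 CPM, and P2ry14, a receptor for nucleotide sugars, from 0.340 ± 0.146 to 4.36 ± 0.506 CPM.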
